A study of Homo sapiens with 31 samples.

Results

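Aminoacyl-tRNA synthetases join each amino acid to its transfer RNAs and so supply the ribosome with charged tRNAs. The 36 synthetase genes described here were taken by gene name, though they were chosen with earlier results of these data known. There were 20 with cytosolic names and 16 whose names end in 2, which encode mitochondrial enzymes. All 36 were found among 56269 gene names in the deposited tables, and all 36 passed the filter on low counts that left 15787 genes to test. The cytosolic and mitochondrial protein synthesis systems use separate enzymes for most amino acids, both encoded in the nucleus. GARS and KARS are exceptions, since each makes both forms from the same gene. FARSA and FARSB encode the 2 subunits of cytosolic phenylalanyl-tRNA synthetase, and EPRS carries the glutamyl and the prolyl enzyme in a single chain. In the cytosol, 8 of the synthetases (those of DARS, EPRS, IARS, KARS, LARS, MARS, QARS and RARS) sit in the multisynthetase complex on 3 scaffold proteins, AIMP1, AIMP2 and EEF1E1.

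Poly(A) RNA came from MCF10A, an established, non-transformed human breast epithelial line that rests when growth factors are withdrawn. Serum, EGF and insulin were withheld for 2 to 3 days (0 h, no drug), after which cells were released into full growth medium that held either 0.1% DMSO, the vehicle, for 3, 6, 9, 12, 15 or 24 h, or 1 µM palbociclib, an inhibitor of CDK4 and CDK6, for 9, 12, 15 or 24 h. All 11 groups were of the same line, and starvation and release media alike held hydrocortisone and cholera toxin. Groups had 3 libraries, except DMSO 24 h and palbociclib 24 h with 2 each, 31 in all. Separate cultures are not stated for the replicates, so the p-values reflect library-to-library spread alone, and that spread may be technical.

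The libraries held 10342358 to 20878364 counts, and mitochondrial transcripts took 2.48% to 4.38%. All 9 basal epithelial markers had a median of at least 10 CPM (counts scaled to the library total adjusted by its TMM factor). Their summed level was 13200 to 28000 CPM, while 4 blood markers summed to at most 0.254 CPM. Among 3 fibroblast markers, 1 had a median of at least 10 CPM, and the list summed to 11.2 to 29.7 CPM. Of 4 luminal epithelial markers, 3 had a median of at least 10 CPM and the list summed to 266 to 725 CPM, while the fourth, KRT19, stayed at or below 0.169 CPM. KDR, from the endothelial list, was at 89.0 ± 3.91 CPM (SD, n = 3) at 0 h and 0.506 ± 0.239 CPM (SD, n = 3) at DMSO 6 h, while CDH5 and VWF never passed 0.254 CPM; its part in the results was not tested. As a check of the drug, E2F1, a known downstream gene, was at 9.10 ± 0.890 CPM in DMSO and 0.452 ± 0.0924 CPM in palbociclib at 9 h (SD, n = 3). Within 0 h and DMSO 3 to 15 h, replicate 2 had a higher mean member level than replicate 3 in all 6 groups, by most at 0 h (0.111 above and 0.107 below the group mean, log2 CPM). On the main axis of variation within groups over all genes, replicate 3 scored -10.5 to -5.45 in those 6 groups but 3.68 to 11.8 in DMSO 24 h and the 4 palbociclib groups, so drug results are also given without these 5 libraries.

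The stretches of promoter shown here hold the composite C/EBP-ATF core (TGATGNAA), the element through which ATF4 acts in the amino acid response, a pathway for which several synthetase genes are textbook targets. RefSeq windows from 250 bases before to 50 bases after the start (GRCh38.p14) were matched by symbol for 30 members, 16 cytosolic and 14 mitochondrial; DARS, LARS, VARS, YARS, AARS2 and VARS2 had none. Searched on both strands, the core was in 6 of 16 cytosolic windows (37.5%), in 1 of 14 mitochondrial windows (7.14%) and in 3.62% of all 35116 windows. Each stretch is the 8-base match in capitals with 10 bases on either side, written 5′ to 3′ on the gene's strand.
AARS (chr16:70289676-70289703, minus strand): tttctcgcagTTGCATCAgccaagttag
CARS (chr11:3057408-3057435, minus strand): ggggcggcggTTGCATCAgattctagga
IARS (chr9:92293693-92293720, minus strand): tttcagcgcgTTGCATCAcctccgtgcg
MARS (chr12:57488054-57488081, plus strand): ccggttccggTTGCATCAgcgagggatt
NARS (chr18:57621805-57621832, minus strand): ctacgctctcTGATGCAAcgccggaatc
TARS (chr5:33440957-33440984, plus strand): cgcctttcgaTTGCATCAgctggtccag
YARS2 (chr12:32756077-32756104, minus strand): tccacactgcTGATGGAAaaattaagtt
The 6 cytosolic matches spell the same 8 letters, read forward in NARS and on the other strand in the other five, while the YARS2 match is a different spelling of the core. The E-box CACGTG, the letters that MYC with MAX and several related factors bind, reads the same on both strands and was in 4 of 30 member windows (13.3%) and 7.26% of all windows. The 4 were IARS, CARS2, EARS2 and MARS2. MARS2, the mitochondrial gene with the strongest early rise, and CARS2, which was called lower from 3 to 15 h, are shown with the match in capitals; it lies just before the start in MARS2 and spans it in CARS2.
MARS2 (chr2:197705348-197705373, plus strand): gcgcctctcaCACGTGctgtcagaac
CARS2 (chr13:110706503-110706528, minus strand): ctgggatgcaCACGTGcttcgctaac
A match is a description of these letters and was not tested as a binding site.

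In vehicle, most synthetase transcripts rose after release, and at 3 h most of the falls were mitochondrial. At 3 h against 0 h, 15 members rose and 12 fell (edgeR's quasi-likelihood test, Benjamini-Hochberg adjusted p below 0.05), beside 27.8% of all tested genes that rose and 34.4% that fell. The rises were 12 cytosolic and 3 mitochondrial genes, and the falls 3 cytosolic and 9 mitochondrial, with a median log2 fold change of 0.22 for the cytosolic and -0.24 for the mitochondrial genes against -0.10 for all genes. Scaled by library totals in place of TMM factors, 12 members rose and 18 fell at 3 h, the cytosolic genes splitting 9 to 6 and the mitochondrial 3 to 12, with a median of -0.27 for all genes. CPM values are shares of a bulk library, in which fewer cells of a type and less RNA per cell cannot be told apart.

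By 6 h, 23 members had risen and 7 had fallen, beside 34% and 39.5% of all genes. By 9 h the counts were 26 and 4 (35.3% and 39.9% of all genes), or 24 and 8 by library totals. They were 24 and 4 at 12 h (36.1% and 39.6%), 25 and 4 at 15 h (37.4% and 39.3%) and 27 and 2 at 24 h (36.7% and 38.9%). At 24 h, 17 of 20 cytosolic and 10 of 16 mitochondrial genes were higher, with median log2 fold changes of 0.86 and 0.62 against -0.10 for all genes. Together the cytosolic members took 2718 ± 189 CPM at 0 h (SD, n = 3) and 4433 ± 119 CPM at DMSO 24 h (SD, n = 2), and the mitochondrial members 845 ± 50 and 1169 ± 9 CPM.

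**Figure D1:**
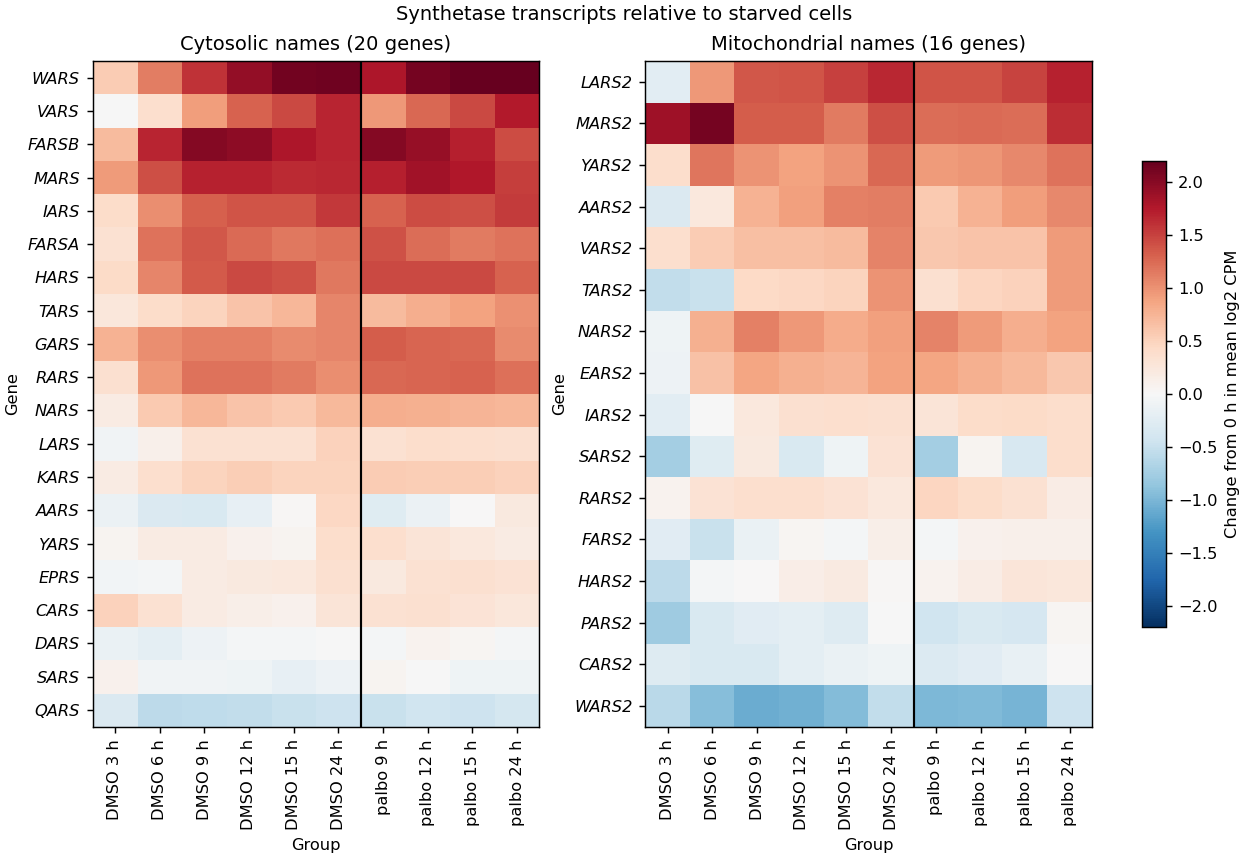
Change from 0 h in mean log2 CPM (colour) for each member (rows, ordered by DMSO 24 h) in each released group (columns, DMSO left of the line and palbociclib, "palbo", right of it). Most cytosolic rows turn red from 3 or 6 h and 9 mitochondrial genes had fallen at 3 h.

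Between neighbouring times, most calls came before 9 h. From 3 to 6 h, 23 members rose and 6 fell (27.8% and 29.8% of all genes), or 26 and 2 by library totals. From 6 to 9 h, 16 rose and MARS2 alone fell (18.1% and 16.6%). From 9 to 12 h VARS and WARS rose and none fell (9.07% and 6.12%), and from 12 to 15 h AARS and AARS2 rose and none fell (5.03% and 1.98%), or 1 each way by library totals. Neither of the latter calls held in every fit that left out a library: 0 to 1 members were then called. From 15 to 24 h, 12 rose and HARS fell (16.5% and 13%), and without either replicate of DMSO 24 h 7 were called in all.

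The largest cytosolic rise was that of WARS, which charges tryptophan tRNA and is also known as an interferon-induced gene. WARS was at 27.0, 29.8 and 24.9 CPM at 0 h, at 58.8, 64.1 and 55.0 CPM at DMSO 6 h, and at 116.8 and 123.4 CPM at DMSO 24 h. Group means climbed to 24 h, and no library of DMSO 6 h or later overlapped 0 h. The log2 fold change was 1.13 ± 0.073 (SE) at 6 h, 2.12 ± 0.071 at 15 h (adjusted p = 2.91e-22) and 2.14 ± 0.076 at 24 h (edgeR). Opposite-strand genes cover 10.57% of the exonic bases of WARS, and the counting did not use strand.

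FARSA and FARSB, the paired subunits of 1 enzyme, followed a different course, with their highest group mean at 9 h. FARSB was at 32.3, 39.4 and 33.7 CPM at 0 h, 145.5, 137.5 and 144.5 CPM at DMSO 9 h, and 110.7 and 113.4 CPM at DMSO 24 h. FARSA was at 36.9, 43.4 and 35.5 CPM at 0 h, 103.4, 102.4 and 91.3 CPM at DMSO 9 h, and 86.9 and 90.9 CPM at DMSO 24 h. In both genes all libraries from 6 h on lay above 0 h. The log2 fold change at 9 h was 2.02 ± 0.079 for FARSB (adjusted p = 1.8e-20) and 1.36 ± 0.083 for FARSA (adjusted p = 1.42e-15, edgeR). Neither gene was called lower between neighbouring times after 9 h, and 9 h was not compared directly with 24 h.

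VARS, for valine, was first called higher at 6 h and had its highest mean at 24 h. VARS was at 103.8, 106.3 and 95.3 CPM at 0 h, 99.1, 103.9 and 99.4 CPM at DMSO 3 h, and 329.9 and 319.6 CPM at DMSO 24 h. The 3 h libraries overlapped those of 0 h, whereas all those of 6 h or later were higher. Its log2 fold change was -0.01 ± 0.058 at 3 h, 0.92 ± 0.057 at 9 h and 1.67 ± 0.062 at 24 h (adjusted p = 4.19e-21, edgeR).

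MARS, for methionine and the start codon's tRNA, had risen by 3 h and had its highest mean at 12 h. MARS was at 51.1, 64.2 and 48.5 CPM at 0 h, 100.4, 111.8 and 99.5 CPM at DMSO 3 h, and 163.8 and 181.2 CPM at DMSO 24 h. Its log2 fold change was 0.93 ± 0.073 at 3 h and 1.66 ± 0.078 at 24 h (adjusted p = 2.17e-18, edgeR). MARS shares 12.4% of its exonic bases with opposite-strand genes, among them DDIT3, which fell by 2.68 on the log2 scale at 6 h.

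**Figure D2:**
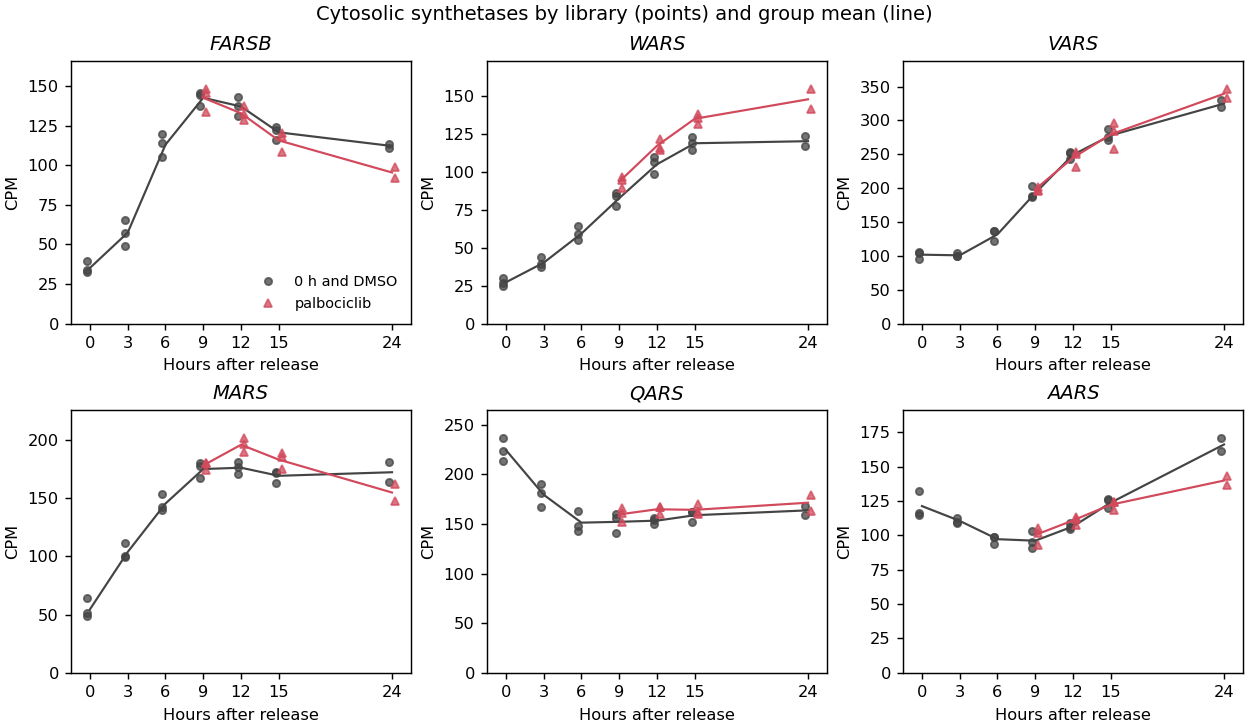
CPM of 6 cytosolic synthetases (vertical axis from 0) against hours after release, each point a library and each line a group mean, with grey circles for 0 h and DMSO and red triangles for palbociclib. FARSB has its highest mean at 9 h, WARS and VARS climb to 15 or 24 h, QARS falls and stays low, and AARS dips before rising.

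Not all cytosolic genes rose. QARS, for glutamine, was the only cytosolic member called lower than at 0 h at all 6 DMSO times. QARS was at 224, 236.4 and 213.1 CPM at 0 h, 143.2, 163.1 and 147.7 CPM at DMSO 6 h, and 159.4 and 168.1 CPM at DMSO 24 h. No released library reached a 0 h library, and the log2 fold change was -0.57 ± 0.060 at 6 h (adjusted p = 5.63e-10) and -0.46 ± 0.067 at 24 h (adjusted p = 4.07e-07, edgeR). QARS belongs to the multisynthetase complex, of whose 8 genes 6 had risen at 24 h (EPRS, IARS, KARS, LARS, MARS and RARS), QARS had fallen and DARS was not called. Of all genes, 36.7% had risen and 38.9% had fallen at 24 h. DARS, for aspartate, was at 120.7, 126.6 and 111.7 CPM at 0 h and 113.7 and 123.9 CPM at DMSO 24 h, with overlapping libraries. It was called lower at 3 and 6 h, the former call being lost in 5 of the fits that left out a library.

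AARS, for alanine, dipped and then rose. AARS was at 116.5, 132.3 and 115 CPM at 0 h, 93.9, 98.8 and 98.8 CPM at DMSO 6 h, and 161.6 and 170.6 CPM at DMSO 24 h. The 6 h libraries lay below and the 24 h libraries above all those of 0 h. The log2 fold change was -0.32 ± 0.057 at 6 h (adjusted p = 8.47e-06) and 0.45 ± 0.061 at 24 h (adjusted p = 8.54e-08, edgeR). SARS, for serine, was called only at 15 h, lower by a log2 fold change of -0.18 ± 0.062 (adjusted p = 0.012, edgeR), and it lost the call without replicate 2 of 0 h or without any DMSO 15 h library.

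Among the mitochondrial genes, MARS2 had an early peak. MARS2, for methionine, was at 9.42, 9.40 and 7.64 CPM at 0 h, 34.3, 33.2 and 29.2 CPM at DMSO 3 h, 39.2, 40.0 and 35.0 CPM at DMSO 6 h, and 23.1, 22.9 and 21.2 CPM at DMSO 9 h. All released libraries were above 0 h, and all 9 h libraries were below those of 3 and 6 h. The log2 fold change was 2.11 ± 0.1 at 6 h (adjusted p = 3.02e-18) and, from 6 to 9 h, -0.76 ± 0.09 (adjusted p = 6.16e-08, edgeR). MYC, whose binding letters are in the MARS2 window printed above, was at 320.4 ± 85.1 CPM at 0 h, 784.8 ± 51.2 CPM at DMSO 3 h and 423.7 ± 33.3 CPM at DMSO 9 h (SD, n = 3); its part in the course of MARS2 was not tested.

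LARS2, for leucine, was first called higher at 6 h and was highest at 24 h. LARS2 was at 16.2, 14.9 and 17.3 CPM at 0 h, 31.7, 31.1 and 31.1 CPM at DMSO 6 h, and 52.9 and 49.8 CPM at DMSO 24 h. Its log2 fold change was 0.95 ± 0.07 at 6 h and 1.67 ± 0.073 at 24 h (adjusted p = 2.98e-19, edgeR), with no overlap between these groups and 0 h.

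TARS2, for threonine, changed direction. TARS2 was at 30.0, 27.0 and 25.5 CPM at 0 h, 18.0, 20.4 and 20.4 CPM at DMSO 6 h, and 54.2 and 55.3 CPM at DMSO 24 h. The 6 h libraries lay below and the 24 h libraries above those of 0 h, with log2 fold changes of -0.48 ± 0.086 (adjusted p = 9.57e-06) and 0.99 ± 0.086 (adjusted p = 7.01e-12, edgeR). From 6 to 9 h it rose by a log2 fold change of 0.93 ± 0.085.

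YARS2, for tyrosine, and AARS2, for alanine, rose as well. YARS2 was at 18.8, 18.7 and 15.2 CPM at 0 h and 43.0 and 41.0 CPM at DMSO 24 h, a log2 fold change of 1.25 ± 0.093. AARS2 was at 15.51, 14.53 and 15.99 CPM at 0 h, 11.5, 13.0 and 12.6 CPM at DMSO 3 h, and 35.0 and 32.3 CPM at DMSO 24 h. It was thus lower than 0 h at 3 h (log2 fold change -0.30 ± 0.074) and higher at 24 h (1.13 ± 0.071, adjusted p = 3.24e-15, edgeR).

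WARS2, for tryptophan, was called lower than at 0 h at all 6 DMSO times. WARS2 was at 36.8, 39.1 and 33.9 CPM at 0 h, 18.1, 16.2 and 17.3 CPM at DMSO 9 h, and 25.1 and 24.9 CPM at DMSO 24 h. No released library reached 0 h, and the log2 fold change was -1.09 ± 0.083 at 9 h (adjusted p = 2.73e-13) and -0.55 ± 0.089 at 24 h (adjusted p = 2.01e-06, edgeR). CARS2, for cysteine, was called lower from 3 to 15 h. It was at 108.2, 110.8 and 100.1 CPM at 0 h and 89.9, 81.2 and 81.6 CPM at DMSO 6 h, a log2 fold change of -0.34 ± 0.057. FARS2, for phenylalanine, was lower at 3 and 6 h and not called later, with 15.96, 19.26 and 15.93 CPM at 0 h and 11.9, 13.19 and 10.96 CPM at DMSO 6 h.

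**Figure D3:**
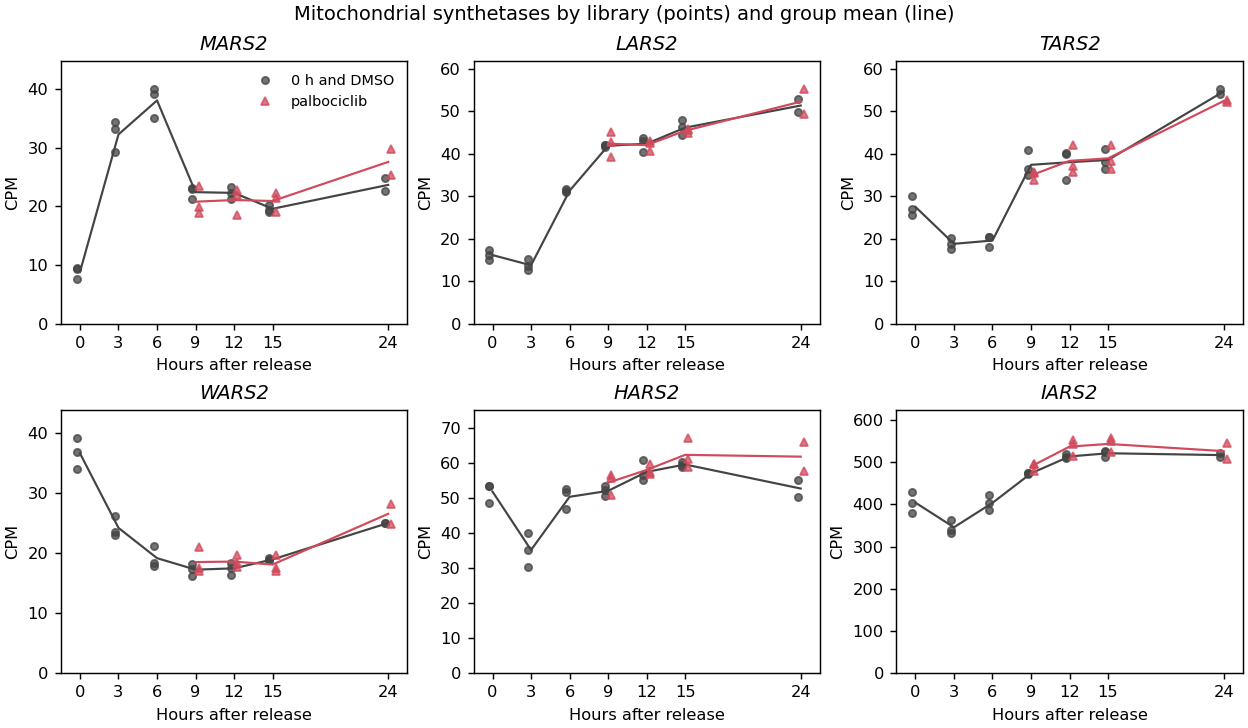
CPM of 6 mitochondrial synthetases (vertical axis from 0) against hours after release, with points, lines and colours as in the cytosolic plot. MARS2 peaks at 6 h, LARS2 and TARS2 are highest at 24 h, WARS2 stays below its 0 h level, and HARS2 and IARS2 dip at 3 h.

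Set side by side by amino acid, 17 cytosolic and mitochondrial pairs could be formed (FARS2 with either FARSA or FARSB, and EPRS with either EARS2 or PARS2, so pairs share genes). At 3 h, 7 pairs had a cytosolic gene called higher and a mitochondrial gene called lower, with FARS2 counted beside both FARSA and FARSB. In 1 pair both were higher and in 1 pair both lower. The latter pair, AARS and AARS2, rests on a small fall of AARS (log2 fold change -0.13). With DESeq2's size factors in edgeR, 1 cytosolic gene rather than 3 was called lower at 3 h, and likewise with DESeq2. Of all genes, 27.8% had risen and 34.4% had fallen at 3 h. At 24 h, 10 pairs had both higher, and only WARS and WARS2 were called in opposite directions, beside 36.7% of all genes higher and 38.9% lower. The pair AARS and AARS2, like LARS and LARS2 and YARS and YARS2, had the larger estimate on the mitochondrial side at 24 h (log2 fold changes of 0.45 and 1.13 for alanine, 0.51 and 1.67 for leucine, 0.39 and 1.25 for tyrosine). The difference within a pair was not tested.

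HARS and HARS2, for histidine, start 84 bases apart on opposite strands by RefSeq. The bases between these RefSeq starts are shown. From the RefSeq starts HARS is read to the left on the minus strand and HARS2 to the right on the plus strand.
HARS and HARS2 (chr5:140691371-140691454, plus strand): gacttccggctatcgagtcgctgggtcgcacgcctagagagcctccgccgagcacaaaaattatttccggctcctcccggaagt
Counts of the 2 genes changed in opposite directions at 3 h. They sum all annotated exons of each gene name, so where the counted RNA started was not tested. In the annotation used for counting, HARS reaches position 140692024 and HARS2 begins at 140691426, so the 2 genes overlap. HARS was at 66.9, 73.5 and 65.2 CPM at 0 h and 86.3, 106.3 and 85.3 CPM at DMSO 3 h, while HARS2 was at 53.5, 53.3 and 48.5 CPM and then 30.3, 40.0 and 35.0 CPM. All HARS libraries at 3 h were above and all HARS2 libraries below those of 0 h. The log2 fold changes were 0.44 ± 0.069 (adjusted p = 1.66e-06) and -0.55 ± 0.077 (adjusted p = 2.63e-07, edgeR). HARS shares 18.3% and HARS2 21.8% of its exonic bases with other genes, each other included, so reads from the overlap could not be given to either.

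**Figure D4:**
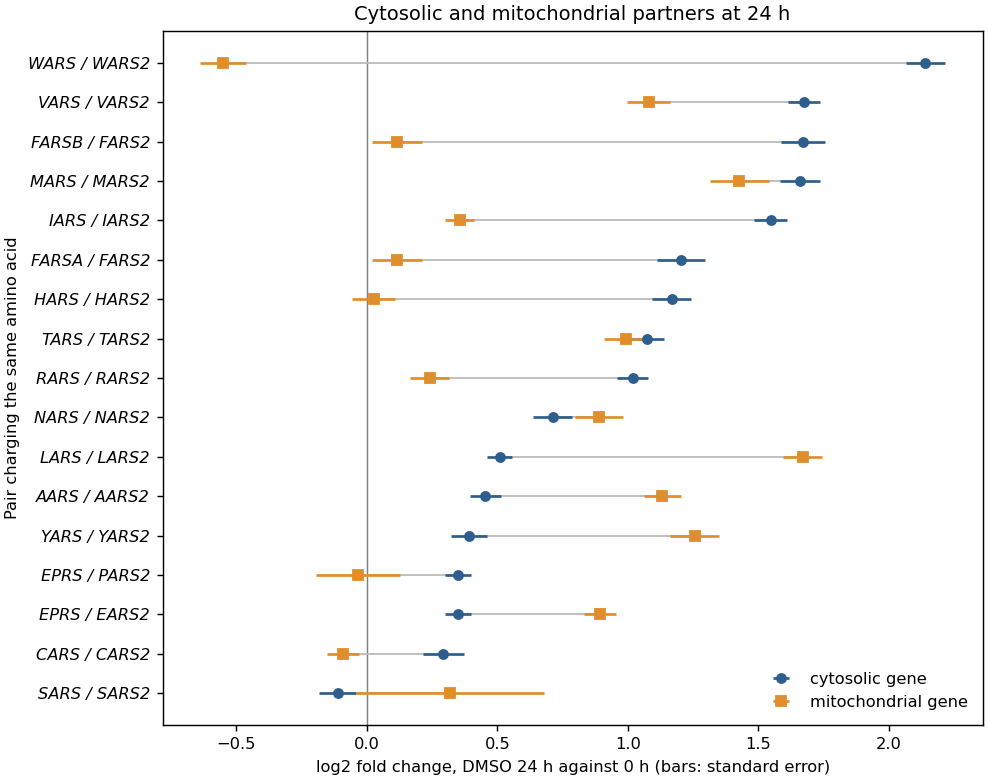
log2 fold change of DMSO 24 h against 0 h (horizontal axis, bars of 1 standard error) for cytosolic genes (blue circles) and mitochondrial genes (orange squares) that charge the same amino acid, 1 row per pair. Only WARS and WARS2 were called in opposite directions, and LARS2, AARS2 and YARS2 lie to the right of their cytosolic partners.

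Levels were compared between genes per length of exon. That length joins all annotated exons of a gene name, so ranks also depend on the annotation. At 0 h EPRS was at 100.6 ± 5.24 CPM per kb (SD, n = 3) and IARS2, the mitochondrial isoleucyl enzyme, at 97.1 ± 5.82 CPM per kb, within their spread of each other and above SARS, at rank 3 with 48.7 ± 4.01 CPM per kb. The median was 25.2 CPM per kb for cytosolic and 6.72 CPM per kb for mitochondrial genes. At DMSO 24 h EPRS (128 ± 1.27 CPM per kb, SD, n = 2) and IARS2 (124.2 ± 1.56) still led, and RARS had moved from rank 7 to rank 3 at 67.9 ± 1.79 CPM per kb. WARS moved from rank 31 at 4.28 ± 0.384 CPM per kb to rank 20 at 18.9 ± 0.735 CPM per kb, and QARS from rank 4 to rank 13. SARS2 was lowest at both times, at 0.306 ± 0.0855 CPM per kb at 0 h. It had 4 to 22 counts per library, was called in no comparison with 0 h, and shares 57.0% of its exonic bases with other genes, from which reads were not counted.

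Differences between palbociclib and DMSO were small for the synthetases. Positive estimates numbered 18, 17 and 17 of 20 cytosolic genes at 9, 12 and 15 h, and 8 at 24 h. Their median log2 fold changes were 0.06, 0.09, 0.08 and -0.02, against 0.004 to 0.015 for all genes. Of the 16 mitochondrial genes 7, 9, 7 and 9 had positive estimates. Whether either class shifted as a whole was not tested. At 9 h none of the 36 members was called by edgeR, beside 1.19% of all genes; 7 had an unadjusted p below 0.05, and DESeq2 also called 0. At 12 h none was called, beside 5.64% of all genes; 10 had an unadjusted p below 0.05, and DESeq2 called 4 (CARS, EPRS, TARS and YARS, all higher). Leaving out SARS2 for its few counts, the log2 fold changes ran from -0.19 to 0.21 at 9 h and from -0.14 to 0.22 at 12 h. Their 95% intervals lay within -0.51 to 0.36 and within -0.44 to 0.37. Without the 5 libraries named above, edgeR called none of the 36 at 9, 12, 15 or 24 h, with 2 libraries left in each palbociclib group and 1 in both groups at 24 h.

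At 15 h GARS was called higher and AARS2 lower in palbociclib, beside 2.15% of all genes higher and 8.79% lower. GARS, for glycine in both compartments, was at 235.7, 242.5 and 233.5 CPM in DMSO and 253.3, 292.8 and 284.3 CPM in palbociclib, without overlap. The log2 fold change was 0.22 ± 0.074 (adjusted p = 0.047, edgeR). AARS2 was at 32.5, 33.2 and 34.2 CPM in DMSO and 29.2, 29.8 and 28.2 CPM in palbociclib, also without overlap. Its log2 fold change was -0.20 ± 0.062 (adjusted p = 0.0352, edgeR). Neither call held throughout: AARS2 lost it without any single library of the 6, and GARS without any of 5, all but replicate 1 of palbociclib 15 h. With DESeq2's size factors in edgeR 7 members were called at 15 h, all higher, and by library totals 8, all higher. All of these were cytosolic. The median log2 fold change over all genes was 0.03 under both scalings, against 0.006 with TMM factors. The share of all genes called was not computed under other scalings or with DESeq2.

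At 24 h 5 members were called, 2 higher and 3 lower, beside 5.76% and 12.3% of all genes. EARS2, the mitochondrial glutamyl enzyme, which also charges the tRNA for glutamine in mitochondria, was at 54.2 and 55.7 CPM in DMSO and 44.2 and 44.8 CPM in palbociclib. The groups did not overlap, and the log2 fold change was -0.31 ± 0.068 (adjusted p = 0.0013, edgeR). It stayed below 0.05 without any single library (adjusted p 0.0103 to 0.0479) and was 0.0959 without the 5 libraries. At 9, 12 and 15 h the EARS2 libraries of both treatments overlapped.

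WARS was higher in palbociclib at 24 h, at 116.8 and 123.4 CPM in DMSO and 141 and 154.3 CPM in palbociclib. The log2 fold change was 0.30 ± 0.078 (adjusted p = 0.00611, edgeR). WARS libraries under palbociclib were also all above those of DMSO at 9, 12 and 15 h, by log2 fold changes of 0.16 to 0.18 that were not called. Without replicate 1 of DMSO 24 h the adjusted p was 0.131, and without replicate 3 of palbociclib 24 h it was 0.164.

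AARS was at 161.6 and 170.6 CPM in DMSO 24 h and 136.3 and 143.4 CPM in palbociclib 24 h, a log2 fold change of -0.25 ± 0.068 (adjusted p = 0.00921, edgeR). Both palbociclib libraries lay below both DMSO libraries. The adjusted p was 0.19 without replicate 1 of palbociclib 24 h and 0.123 without replicate 3 of DMSO 24 h. LARS was at 274.8 and 278.6 CPM in DMSO and 245.5 and 251.8 CPM in palbociclib (log2 fold change -0.15 ± 0.053, adjusted p = 0.0395), and RARS at 228.1 and 236.7 against 259.2 and 270.2 CPM (0.19 ± 0.064, adjusted p = 0.0391, edgeR). Both calls were lost without any single library of the 4.

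**Figure D5:**
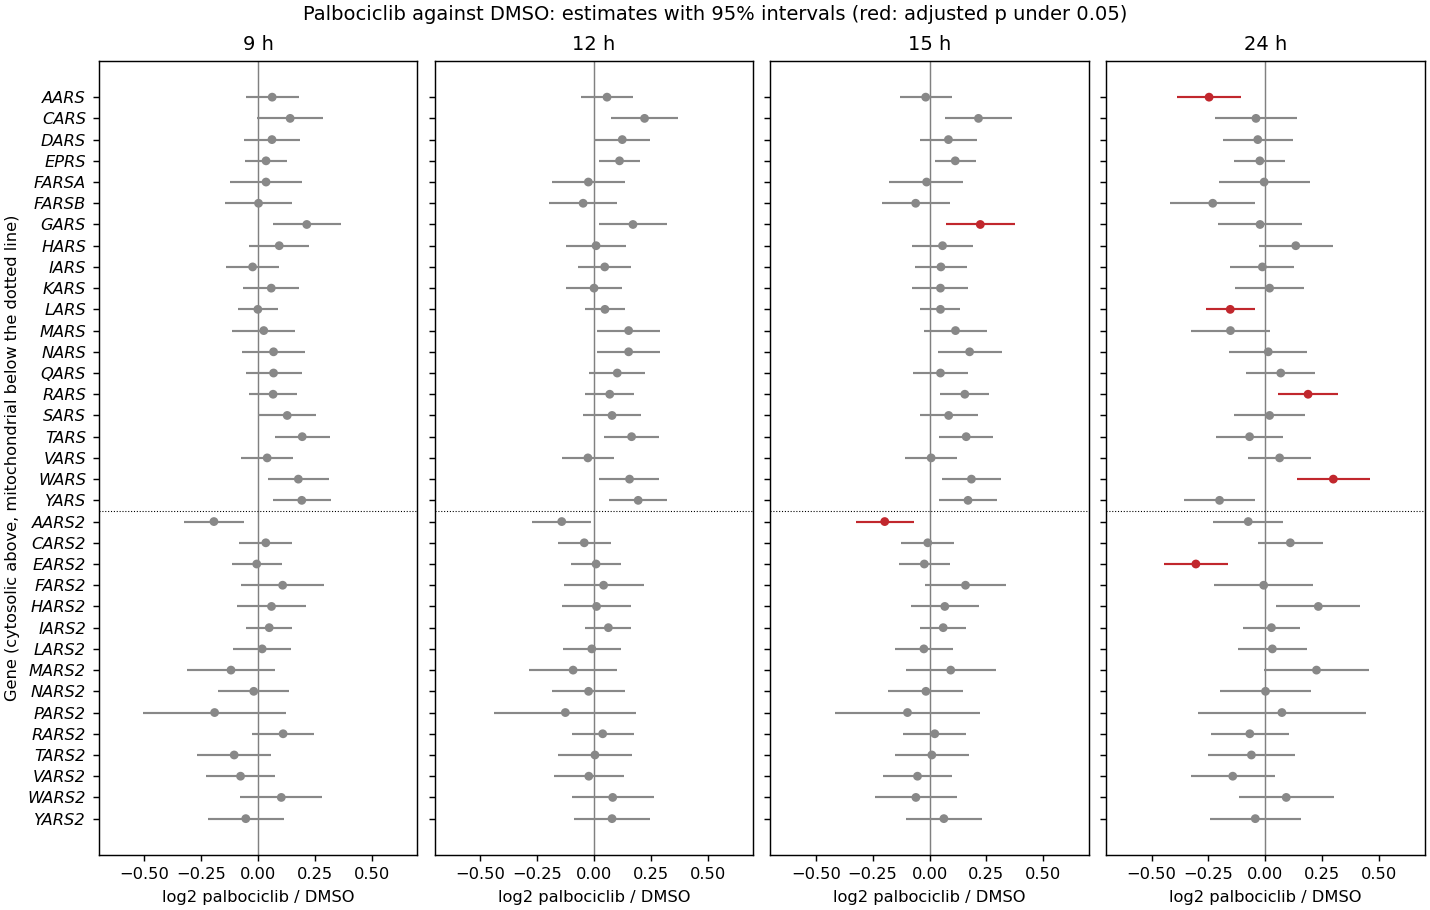
log2 fold change of palbociclib against DMSO at 9, 12, 15 and 24 h (panels) for 35 members (SARS2, with few counts, is left out), with 95% intervals; red marks an adjusted p below 0.05. Only GARS and AARS2 at 15 h and EARS2, WARS, AARS, RARS and LARS at 24 h are red, and all estimates lie within -0.31 to 0.30.

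The drug's effect was compared between times by interaction terms. None of the 36 members differed between 9 and 15 h by edgeR, beside 4.05% of all genes; 0 had an unadjusted p below 0.05 and DESeq2 called 0. Between 15 and 24 h YARS, for tyrosine, was the only member called, beside 2.98% of all genes. YARS was at 128.4, 122.4 and 123.3 CPM in DMSO and 139.3, 137.8 and 143.4 CPM in palbociclib at 15 h, but at 148.1 and 166.3 CPM in DMSO and 125.7 and 147.4 CPM in palbociclib at 24 h. Palbociclib libraries were thus all above DMSO at 15 h and all below at 24 h, a difference of -0.37 ± 0.099 in log2 fold change (adjusted p = 0.0327, edgeR), although neither time was called alone.

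Against starved cells, palbociclib 24 h, compared with the same 0 h libraries as DMSO 24 h, had 28 members higher and 2 lower, beside 34.3% and 36.9% of all genes. WARS was higher by a log2 fold change of 2.44 under palbociclib and 2.14 under DMSO, VARS by 1.74 and 1.67, and FARSB by 1.44 and 1.67. QARS and WARS2 were the 2 lower members in both.

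Other genes of tRNA charging and elongation moved in both directions. Of 24 partner genes 22 were tested, of which 12 had risen and 6 had fallen at DMSO 6 h, beside 34% and 39.5% of all genes, and again 12 and 6 at 24 h, beside 36.7% and 38.9%. TRNT1, which adds the CCA end to tRNAs, rose by a log2 fold change of 2.04 ± 0.085 at 6 h, and AIMP2, a scaffold of the complex, by 1.29 ± 0.107. SEPSECS, which makes selenocysteinyl-tRNA, changed by -1.71 ± 0.108, and QRSL1 and GATB, subunits of the mitochondrial amidotransferase that makes glutaminyl-tRNA from the product of EARS2, by -0.84 ± 0.072 and -0.91 ± 0.089. GATC, the other subunit of that enzyme, rose by 0.64 ± 0.068 at 6 h. Under palbociclib AIMP1 was the only partner called at 12 h (0.24 ± 0.07, adjusted p = 0.0412, edgeR), and none was called by edgeR at 24 h, where 3 had an unadjusted p below 0.05.

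Genes of the ATF4 response, the pathway linked to the printed core, moved in both directions in vehicle. Of 22 listed genes, 5 had risen and 10 fallen at DMSO 6 h, beside 34% and 39.5% of all genes, and 12 had risen and 6 fallen at 24 h, beside 36.7% and 38.9%. ATF4 itself was at 599.1 ± 39.4 CPM at 0 h, 239.7 ± 17.6 CPM at DMSO 6 h (SD, n = 3) and 235.8 ± 21.4 CPM at DMSO 24 h (SD, n = 2); its protein level was not measured. The 6 cytosolic genes with the core had a median log2 fold change of 0.49 at 6 h and 0.89 at 24 h, and the 10 cytosolic genes with a window but no core 0.99 and 1.04. From DMSO 15 to 24 h, 4 of those 6 rose and none fell, with a median of 0.19. Of the 10 without the core, none rose and 1 fell, with a median of 0.02. Over all 20 cytosolic genes 7 rose and 1 fell, so rises also came among DARS, LARS, VARS and YARS, which had no window. Of the 16 mitochondrial genes 5 rose and 0 fell. Leaving out 1 library gave 7 to 10 called members from 15 to 24 h, against 13. In that step 16 of the 22 ATF4 response genes rose and 1 fell, beside 16.5% and 13% of all genes. Any part of the core in these differences was not tested. Under palbociclib at 24 h, 9 of the 22 ATF4 response genes were lower and none higher, beside 12.3% and 5.76% of all genes, among them PHGDH (-2.22 ± 0.146, adjusted p = 9.06e-14) and CHAC1 (-1.23 ± 0.249, adjusted p = 0.00042, edgeR), while of the 6 synthetases with the core only AARS was lower.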

How the data were processed

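Per the labels' protocols, a stranded poly(A) kit and 75-nt single reads were used. TopHat2 2.1.1, Bowtie2 2.2.9, FastQC 0.11.3, Subread 1.5.1 and the GRCh38.p7 build are named per the submitters' processing notes. Per the file headers, featureCounts 1.5.1 produced the deposited raw counts, summing reads over the GENCODE 25 exons of each gene name and setting no strand. Overlapping genes therefore lose reads or take those of the opposite strand.

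Testing used edgeR 4.0.16 under R 4.3.3, with TMM factors (0.927 to 1.081), filterByExpr by group, 1 quasi-likelihood fit of 31 libraries (20 residual degrees of freedom) and Benjamini-Hochberg adjustment over 15787 genes, with calls at an adjusted p below 0.05. Standard errors (SE) were obtained by dividing the absolute log2 fold change by the root of the F statistic. CPM values include TMM factors. The common biological coefficient of variation was 6.55%. Replicates differed by more than sampling noise (chi-square per degree of freedom 3.30 to 17.8). On simulated counts for DMSO 6 h against 0 h, 77.6% of 1.5-fold and 97.0% of 2-fold changes were recovered, and for palbociclib against DMSO at 24 h 77.6% and 89.6%. False calls numbered 6 and 14. The simulation gave all genes the same biological variation and the replicates no shared shifts, so recovery in the data may be lower. Changes below 1.5-fold, such as all drug estimates outside SARS2, were not simulated.

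Alternatives were other scalings, DESeq2 1.42.0, no filter, only a contrast's own libraries, a replicate block, and leaving out single libraries or replicate 3 of DMSO 24 h and of the 4 palbociclib groups (5 libraries). Values per library are given for the 3 largest called rises and falls per class at 6, 15 and 24 h. They are also given for members called in drug contrasts and interactions. HARS and HARS2 were added for their neighbouring RefSeq starts. The members and lists were chosen with earlier results of these data known. Promoter windows are from RefSeq (GRCh38.p14).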

Additional observations from a re-analysis of the deposited data

Results flagged for a closer look

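YARS had an effect of palbociclib at 24 h that differed from that at 15 h by -0.37 in log2 fold change (edgeR interaction, adjusted p = 0.0327), with all palbociclib libraries above DMSO at 15 h and all below at 24 h. The adjusted p was 0.38 without replicate 1 of palbociclib 24 h, 0.261 without replicate 3 of DMSO 24 h, 0.0687 and 0.0655 without replicates 2 and 3 of DMSO 15 h, and 0.0796 without replicate 3 of palbociclib 15 h.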

How the results depend on the processing

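Counts of called members against 0 h, both directions together, stayed within 1.5 times the reported ones under every alternative run. By library totals the falls went from 4 to 8 at 9 h, from 4 to 7 at 12 h and from 2 to 4 at 24 h. By the same scaling the split at 3 h turned from 15 higher and 12 lower (median log2 fold change 0.02) to 12 and 18 (median -0.14). The cytosolic median for palbociclib against DMSO at 24 h went from -0.02 to 0.01. The smaller counts moved. From 12 to 15 h (2 called) there were 0 without the filter, 1 with DESeq2 and 0 to 1 when leaving out 1 library. From 15 to 24 h (13 called) there were 8 without the filter and 7 to 10 when leaving out 1 library. There were 7 without the 5 libraries in which replicate 3 changed sign on the main axis within groups. For palbociclib against DMSO at 12 h (0 called) there were 2 with DESeq2's size factors, 3 by library totals, 4 from the contrast's own libraries, 4 with DESeq2 and 0 to 1 when leaving out 1 library. At 15 h (2 called) these were 7, 8, 4, 8 and 0 to 4, with 0 without the filter and 0 without the 5 libraries. At 24 h (5 called) there were 2 without the filter, 0 without the 5 libraries and 2 to 3 when leaving out 1 library. For the change of the drug effect from 15 to 24 h (1 called) there were 0 without the filter, 0 from its own libraries, 0 without the 5 libraries, 2 with DESeq2 and 0 to 1 when leaving out 1 library. The cause was not tested, though leaving out libraries also leaves fewer samples, 1 in an arm at 24 h, where the lone sample is assumed to vary like the others.

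Replicate numbers were not taken to pair the libraries: 57 of 146 same-numbered pairs correlated above 0.1 (r from -0.398 to 0.496). Among 0 h and DMSO 3 to 15 h, replicate 2 pairs (r from 0.220 to 0.422) and replicate 3 pairs (0.114 to 0.364) all did, and no replicate 1 pair did (0.002 to 0.098). The arms at 24 h share only 2 numbers (r = 0.297 for both). With a replicate block, palbociclib against DMSO gave 2 called members at 9 h. It gave 3 at 12 h and 7 at 15 h, and the change from 15 to 24 h gave 2. The comparison at 24 h gave 6 with the block, against 5 without. Depth limits SARS2, with 4 to 22 counts, and PARS2, with 36 to 131.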
